A study of Homo sapiens with 9 samples.

Results

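The cytosolic ribosomal protein genes were taken as the genes whose symbol is RPL or RPS with a number and at most a short suffix, together with RPLP0, RPLP1, RPLP2 and RPSA. The rule used names only and found 84 of the 60642 gene names in the count table, 52 of the large and 32 of the small ribosomal subunit. Of these, 77 encode core proteins and 7 are paralogs of a core gene (RPL3L, RPL10L, RPL7L1, RPL22L1, RPL26L1, RPL39L and RPS27L). In all, 82 of the 84 passed the filter on low counts, among 18574 genes tested, while RPL10L and RPL39L had no count in any library.

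The RNA came from SNU-398, a human hepatocellular carcinoma (HCC) cell line, carrying a vector control, EMX1-FL or EMX1-X1, with 3 libraries in each group. EMX1 is a homeobox transcription factor. EMX1-FL is its full-length isoform, and EMX1-X1 is an isoform with an alternative terminal exon. The labels give the overexpression as stable and lentiviral and list puromycin selection for all 3 groups, the controls included, and do not say whether a group is 1 clone or whether its libraries are separate cultures. The p-values therefore measure the spread between these libraries, which may be technical.

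Each ribosome is built from a single copy of nearly every ribosomal protein, apart from the acidic stalk proteins RPLP1 and RPLP2. Their mRNAs are among the most abundant of growing cells. Most start with a C followed by a run of pyrimidines, the 5′ terminal oligopyrimidine (TOP) motif, through which mTORC1 and LARP1 control their translation. Such control acts on how much an mRNA is translated, and mRNA levels do not measure it.

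The start of the transcript is shown because the TOP motif is the feature that core genes share and most paralogs lack. RefSeq promoters (GRCh38.p14) were matched by symbol for 67 of the 84 genes. Each line gives 35 bases, 20 before and 15 from the annotated start on, on the strand of the gene. Capitals mark the unbroken run of C and T that holds the start base.
RPS12 (chr6:132814549-132814583, plus strand): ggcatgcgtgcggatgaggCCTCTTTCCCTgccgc
RPLP0 (chr12:120201097-120201131, minus strand): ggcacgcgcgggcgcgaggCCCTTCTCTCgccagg
RPS6 (chr9:19380222-19380256, minus strand): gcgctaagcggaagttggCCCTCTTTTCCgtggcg
RPS3A (chr4:151099608-151099642, plus strand): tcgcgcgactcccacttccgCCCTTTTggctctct
RPS23 (chr5:82278340-82278374, minus strand): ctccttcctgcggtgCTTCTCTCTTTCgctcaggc
RPL38 (chr17:74203658-74203692, plus strand): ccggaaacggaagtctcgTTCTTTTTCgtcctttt
RPS29 (chr14:49598696-49598730, minus strand): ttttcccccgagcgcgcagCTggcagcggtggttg
RPS27 (chr1:153990742-153990776, plus strand): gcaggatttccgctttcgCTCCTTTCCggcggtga
RPS27L (chr15:63157463-63157497, minus strand): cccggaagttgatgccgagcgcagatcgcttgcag
RPL22 (chr1:6199581-6199615, minus strand): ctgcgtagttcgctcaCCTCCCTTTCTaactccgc
RPL22L1 (chr3:170870181-170870215, minus strand): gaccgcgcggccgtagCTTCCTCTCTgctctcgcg
RPL26 (chr17:8383179-8383213, minus strand): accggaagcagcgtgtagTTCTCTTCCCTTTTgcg
RPL26L1 (chr5:172958709-172958743, plus strand): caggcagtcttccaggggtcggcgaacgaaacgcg

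The start base lay in a run of at least 5 C or T in 44 of 62 core genes (71%) and in 1 of 5 paralogs, RPL22L1, against 9.8% of all 27305 promoters. RPS29 has a run too short to count. Over promoters of 300 bases and both strands, the letters TAATTA, the core that many homeobox factors bind, occurred in 0 of the 67 and in 4.98% of all promoters. The letters CCGGAAG, the core of ETS factor motifs, occurred in 34.3% of the 67 and in 10.7% of all promoters. TATAAA occurred in 10.4% and 12%. These counts describe the letters in these windows only.

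The summed share of counts on the ribosomal protein genes did not differ between the 3 groups beyond the spread of the libraries. Their summed share was 3.96%, 4.30% and 5.40% in the 3 vector control libraries, 6.36%, 4.26% and 4.14% in the EMX1-FL libraries, and 4.52%, 4.73% and 5.12% in the EMX1-X1 libraries. EMX1-FL 1 was the highest of the 9, whereas EMX1-FL 2 and EMX1-FL 3 lay inside the range of the controls. The means were 4.55% ± 0.751 for the vector control, 4.92% ± 1.25 for EMX1-FL and 4.79% ± 0.308 for EMX1-X1 (SD, n = 3 each). The two-sided exact permutation test gave p = 0.7 for EMX1-FL and p = 0.7 for EMX1-X1 against vector control, and p = 1 between the isoforms, where 3 libraries against 3 cannot go below 0.1. Per length, the members held 5.19% to 6.55% of the summed TPM (transcripts per 1000000, scaled by gene length) of the vector control, 5.65% to 8.41% of EMX1-FL and 6.12% to 6.91% of EMX1-X1. Fewer cells of a type and less RNA per cell cannot be told apart in such bulk samples.

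Beside these shares, the counts on the mitochondrially encoded genes were 6.96% to 8.18% in the vector control, 3.84% to 6.67% in EMX1-FL and 4.31% to 5.97% in EMX1-X1. The lowest of these was EMX1-FL 1, the library with the highest ribosomal protein share. Both overexpression groups lay below the vector control without overlap (exact permutation p = 0.1 in each comparison, the smallest possible). As a percent of the counts that are not mitochondrial, the ribosomal protein share averaged 4.93% in vector control, 5.19% in EMX1-FL and 5.04% in EMX1-X1. The exact permutation test gave p = 0.7 for EMX1-FL and p = 0.8 for EMX1-X1 against vector control. EMX1-FL 1 stayed the highest library, with 6.62%. Whether the mitochondrial and ribosomal protein shares are linked was not tested.

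The balance of the subunits moved little. Large subunit genes had 1.67, 1.68 and 1.68 times the counts of small subunit genes in the vector control, 1.61, 1.58 and 1.58 times in EMX1-FL, and 1.59, 1.64 and 1.63 times in EMX1-X1. The 3 controls were nearly alike and all other libraries lay below them (exact permutation p = 0.1 for each isoform, the smallest possible). By TPM the ratio was 1.07 to 1.08 for the vector control libraries and 0.979 to 1.12 for EMX1-FL, so these groups overlapped there (exact permutation p = 0.4). It was 1.00 to 1.07 for EMX1-X1, which stayed below the vector control without overlap (exact permutation p = 0.1).

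**Figure D1:**
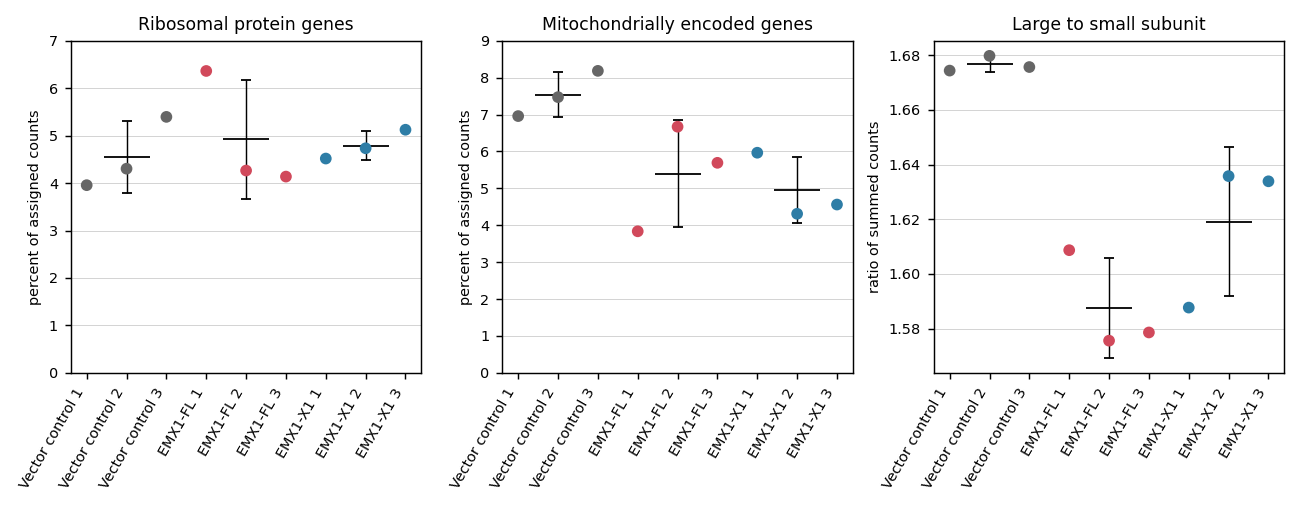
Share of assigned counts on the ribosomal protein genes (left) and on mitochondrially encoded genes (middle), in percent, and the ratio of large to small subunit counts (right, axis not from 0), for each of the 9 libraries; bars give the group mean ± SD. EMX1-FL 1 has the highest ribosomal protein share, 6.36%, and the lowest mitochondrial share, 3.84%, while the subunit ratio of the 3 controls lies above that of all other libraries.

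The libraries also differed in ways that the groups do not explain. Total counts were 21562703 to 25197970. Without the members, the first principal component of log2 CPM (counts per 1000000, library sizes scaled by TMM) held 39.6% of the variance and set vector control 3, EMX1-FL 1, EMX1-X1 2 and EMX1-X1 3 apart from the other 5 libraries. The sides come from the measured counts, not from the labels. Within the first 4, the share was 6.36% in EMX1-FL 1, 5.40% in vector control 3 and 4.93% as the mean of the 2 EMX1-X1 libraries. Within the other 5, it was 4.20% for EMX1-FL (2 libraries), 4.13% for the vector control (2 libraries) and 4.52% for EMX1-X1 (1 library). EMX1 itself, which checks the labels, had 9.34 to 12.9 CPM in the vector control, 135 to 251 in EMX1-FL and 145 to 294 in EMX1-X1. Of 10 hepatocyte and hepatoma markers, 8 averaged under 1 TPM, among them APOA1, TTR, AFP and HNF4A, and only ALB and GPC3 were above. Of 5 epithelial markers, KRT8, KRT18 and KRT19 were under 1 TPM. The 5 mesenchymal-like markers (VIM, CDH2, ZEB1, FN1 and SPARC) summed to 750 to 1190 TPM over the 9 libraries. Most of this sum was VIM, with 703 to 1120 TPM, while ZEB1 and SPARC averaged under 1 TPM. The 4 blood markers summed to at most 3.2 TPM and the 3 endothelial markers to at most 0.3.

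Levels between genes were compared per length, as TPM. The length is that of the gene, not of a single transcript. It is 639 bases for RPS12 and 3988 for RPLP0, whose principal transcripts have 631 and 1257 bases. In CPM the vector control mean was 3771 for RPLP0 and 1415 for RPS12. The order of levels and the share of the highest genes therefore depend on the length used. In the vector control the mean level ran from 7728 TPM for RPS12 to 2.06 TPM for RPL3L, with a median of 472 TPM over the 82 genes. The 5 highest held 29.8% of the summed TPM of the family. RPS12, a small subunit protein, had 7081, 7528 and 8575 TPM in vector control, 7495, 7745 and 7424 in EMX1-FL, and 8339, 9259 and 9562 in EMX1-X1. The EMX1-FL libraries lay below the EMX1-X1 libraries without overlap in TPM and in log2 CPM, with a log2 fold change of -0.26 ± 0.15 (SE; adjusted p = 0.611 by edgeR, exact permutation p = 0.1). The exact test of single genes was run on log2 CPM throughout.

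RPLP0, the scaffold of the ribosomal stalk, came next with 3090, 3053 and 3749 TPM in vector control, 3067, 3289 and 3477 in EMX1-FL, and 3115, 3389 and 3651 in EMX1-X1. RPS18 of the small subunit had 2445, 2310 and 2783 TPM, then 4158, 2142 and 2339, then 2773, 3207 and 3445 in the same order of groups. Its highest value was again in EMX1-FL 1. RPLP1, a stalk protein, had 1598, 1771 and 2246 TPM, then 1692, 2131 and 2042, then 1663, 1767 and 1926, with overlap among all 3 groups. RPL8 of the large subunit had 1625, 1656 and 1942 TPM, then 4240, 1009 and 1122, then 1644, 3168 and 3296. For RPL8, EMX1-FL 1 lay above the control range and the other 2 EMX1-FL libraries below it.

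In the order of levels, the 3 vector control libraries of a gene lay wholly above those of the next gene for 9 of 81 neighbours, among them RPS12 over RPLP0, RPLP0 over RPS18 and RPS18 over RPLP1. All other neighbours overlapped. This order holds for TPM with the gene lengths used, and in CPM RPLP0 was above RPS12.

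At the low end, RPL3L, the muscle paralog of RPL3, had 2.31, 2.03 and 1.85 TPM in vector control, 1.95, 1.76 and 2.34 in EMX1-FL, and 2.05, 2.64 and 2.66 in EMX1-X1. RPL36A had 4.37, 4.52 and 4.27 TPM, then 5.75, 4.74 and 7.23, then 4.08, 4.55 and 3.67. RPS10 had 8.50, 4.20 and 4.44 TPM, then 4.17, 5.03 and 6.54, then 5.52, 5.16 and 4.75. RPL36A and RPS10 encode core proteins, yet 22.5% and 40.3% of their exon bases are shared with other gene names, where read pairs are not counted. For RPL17, with 18.1, 17.9 and 12.4 TPM, then 31.3, 14.7 and 14.7, then 14.5, 16.8 and 17.4, that share was 35.3%. The low values of these 3 core genes are therefore uncertain as levels.

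For EMX1-FL against vector control, few of the 82 genes were called, and the direction depended on EMX1-FL 1 and on vector control 1. At an unadjusted p under 0.05, 6 genes rose and 0 fell in edgeR's quasi-likelihood test: RPL38, RPS15, RPS13, RPS23, RPL37A and RPL37. That is 7.32% of the members against 3.97% of all genes tested that rose and 1.83% that fell. Past the study's threshold for differentially expressed genes (DEGs), a log2 fold change of 1 or more in either direction at an unadjusted p under 0.05, were 2 of 82, RPL38 and RPS23, or 2.44%, against 2.42% of all genes, so the share of members was at the background. With Benjamini-Hochberg adjustment 0 members passed 0.05, against 0.07% of all genes. The median log2 fold change of the members was 0.10, against 0.04 for all genes.

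RPL38, a large subunit protein, had 66.0, 91.8 and 126 TPM in vector control, 507, 137 and 140 in EMX1-FL, and 174, 83.5 and 99.8 in EMX1-X1. EMX1-FL 1 stood far above the other 8 libraries. The log2 fold change of EMX1-FL against vector control was 1.37 ± 0.50 (SE; adjusted p = 0.671 by edgeR, exact permutation p = 0.3). RPS23, a small subunit protein at the decoding centre, had 34.0, 43.2 and 53.8 TPM, then 248, 49.0 and 72.4, then 69.0, 23.8 and 25.1. It changed by 1.40 ± 0.57 in log2 (adjusted p = 0.796 by edgeR, exact permutation p = 0.2), and the groups overlapped. RPS15, at the head of the small subunit, had 367, 440 and 647 TPM, then 1104, 729 and 670, then 647, 636 and 667. The log2 fold change of RPS15 was 0.67 ± 0.26 (adjusted p = 0.751 by edgeR, exact permutation p = 0.3).

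Without EMX1-FL 1, 0 members were higher and 18 lower at an unadjusted p under 0.05, the median turned to -0.11, and 16.4% of all genes were called in either direction. Without vector control 1, 0 members were called at that p (4.23% of all genes called) and the median was -0.002. The count of members was 1 without vector control 2 (4.28%), 10 without vector control 3 (4.55%), 12 without EMX1-FL 2 (5.19%) and 13 without EMX1-FL 3 (4.95%). The DEGs among the members numbered 0 without EMX1-FL 1 or vector control 1, 1 without vector control 2, 6 without vector control 3 and 8 without EMX1-FL 2 or EMX1-FL 3. The share of all genes past the DEG threshold is not given for these fits, so these counts have no background beside them. Which groups separated depended on the unit. In log2 CPM, EMX1-FL lay above vector control without overlap for 2 members, RPL34 and RPS27L, against 5.36% of all genes, and below it for 2, RPL22 and RPL7L1, against 5.14%. In TPM, which are not scaled by TMM, it lay above for 11, against 7.88% of all genes, and below for 0, against 2.74%. The 11 were RPL34, RPS27L, RPL5, RPL7, RPL31, RPL36A, RPL37A, RPL38, RPS13, RPS15 and RPS29, while RPL22 and RPL7L1 overlapped with the controls.

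For EMX1-X1 against vector control, 1 member was called at an unadjusted p under 0.05, which fell, and 0 passed the DEG threshold, against 2.5% of all genes. Of all genes, 5.95% rose and 2.16% fell at that p, and 0.00538% passed an adjusted p under 0.05, where 0 members did. The median log2 fold change of the members was -0.04, against 0.01 for all genes. In log2 CPM, EMX1-X1 lay above vector control without overlap for 0 members, against 8.03% of all genes, and below it for 2, RPL26L1 and RPL7L1, against 6.67%. In TPM it lay above for 5, among them RPS6, against 14.8% of all genes, and below for 1, RPL26L1, against 3.1%.

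The gene that fell was RPS3A, a small subunit protein. It had 846, 997 and 1118 TPM in vector control, 973, 1285 and 1211 in EMX1-FL, and 866, 616.5 and 652 in EMX1-X1. EMX1-X1 2 and EMX1-X1 3 were the lowest, while EMX1-X1 1 lay inside the control range. The log2 fold change was -0.58 ± 0.20 (SE; adjusted p = 0.536 by edgeR, exact permutation p = 0.2), and without EMX1-X1 2 no member was called, against 3.35% of all genes. RPS2 had the next smallest p, with 1395, 1369 and 1697 TPM, then 3174, 1274 and 1365, then 1658, 3160 and 3264. Its log2 fold change was 0.75 ± 0.36 (adjusted p = 0.619 by edgeR, exact permutation p = 0.2). Pseudogene names held 10.3% of the counts of RPS2 and its pseudogenes together. Read pairs that fit both are left out by default, so this percentage does not measure them. RPL21 had 931, 991 and 1053 TPM, then 926, 1025 and 1018, then 1023, 747 and 810, and its change in log2 was -0.31 ± 0.16 (adjusted p = 0.636 by edgeR, exact permutation p = 0.2). At an unadjusted p under 0.05, 7 members were called without EMX1-FL 1, where 14.6% of all genes were called, and 7 without EMX1-X1 1, where 17.1% were. There were 2 without vector control 1, vector control 3, EMX1-FL 2 or EMX1-FL 3, against 5.16% to 8.06% of all genes.

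Between the isoforms, 12 members were higher in EMX1-FL than in EMX1-X1 at an unadjusted p under 0.05 and 0 were lower. That is 14.6% of the members, against 2.98% of all genes that were higher and 4.66% that were lower. Past the DEG threshold were 5, RPS23, RPL23A, RPS29, RPL38 and RPL30, against 1.42% of all genes. With adjustment 0 members and 0% of all genes passed 0.05. The comparison shares its libraries with the other comparisons, so its values are not independent of theirs. In log2 CPM, EMX1-FL lay above EMX1-X1 without overlap for 7 members, against 3.89% of all genes, and below it for 1, RPS12, against 4.49%. The 7 were RPL31, RPL34, RPL36A, RPS3A, RPS4X, RPS13 and RPS27L, and none of the 5 DEGs was among them. In TPM there were 8 above, these 7 and RPS15, against 3.62% of all genes, and again RPS12 below, against 4.74%.

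RPS3A had the smallest p of this comparison. Its log2 fold change was 0.70 ± 0.20 (SE; adjusted p = 0.611 by edgeR, exact permutation p = 0.1), and within the sides the difference was 0.52 between EMX1-FL 2 and 3 and EMX1-X1 1, and 0.65 between EMX1-FL 1 and EMX1-X1 2 and 3. RPL23A, a large subunit protein near the tunnel exit, had 77.2, 91.9 and 107.5 TPM in vector control, 397, 83.9 and 86.0 in EMX1-FL, and 86.8, 42.4 and 53.4 in EMX1-X1. Its log2 fold change was 1.66 ± 0.54 (adjusted p = 0.611 by edgeR, exact permutation p = 0.3), but the difference was -0.04 between EMX1-FL 2 and 3 and EMX1-X1 1, and 3.09 between EMX1-FL 1 and EMX1-X1 2 and 3. Pseudogene names held 30.4% of the counts of RPL23A and its pseudogenes together. RPS29 had 20.3, 27.3 and 41.1 TPM, then 112, 44.9 and 43.3, then 50.4, 14.6 and 21.0. Between the isoforms RPS29 differed by 1.23 ± 0.50 in log2 (adjusted p = 0.611 by edgeR, exact permutation p = 0.3). RPL30 had 126, 147 and 184 TPM, then 530, 179 and 194, then 224, 105 and 112. Between the isoforms RPL30 differed by 1.05 ± 0.42 in log2 (adjusted p = 0.611 by edgeR, exact permutation p = 0.3).

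For RPS23 the log2 fold change between the isoforms was 1.67 ± 0.58 (adjusted p = 0.611 by edgeR, exact permutation p = 0.2), and for RPL38 it was 1.15 ± 0.50 (adjusted p = 0.611 by edgeR, exact permutation p = 0.3). All 5 DEGs had a difference below 0 between EMX1-FL 2 and 3 and EMX1-X1 1, from -0.34 for RPL38 to -0.04 for RPL23A. Between EMX1-FL 1 and EMX1-X1 2 and 3 the differences were 2.32 for RPL30 to 3.37 for RPS23. RPL34 was steadier, with 232, 259 and 257 TPM in vector control, 325, 326 and 317 in EMX1-FL, and 246, 232 and 245 in EMX1-X1. All 3 EMX1-FL libraries lay above the other 6, with a log2 fold change of 0.42 ± 0.15 against EMX1-X1 (adjusted p = 0.611 by edgeR) and 0.27 against vector control (adjusted p = 0.96 by edgeR), and an exact permutation p of 0.1 in both.

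Without EMX1-FL 1, the comparison between the isoforms called 7 members higher and 20 lower at an unadjusted p under 0.05, and 9 passed an adjusted p under 0.05. In that fit 34.7% of all genes were called at the unadjusted p. Without EMX1-X1 1 the members called were 17 higher and 1 lower (20.1% of all genes called). Without EMX1-X1 2 there were 3 (2.12%), and without EMX1-X1 3 there were 4 (2.03%). The DEGs among the members were 2 without EMX1-FL 1, 9 without EMX1-X1 1, 1 without EMX1-X1 2 and 2 without EMX1-X1 3, again without a share of all genes beside them.

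**Figure D2:**
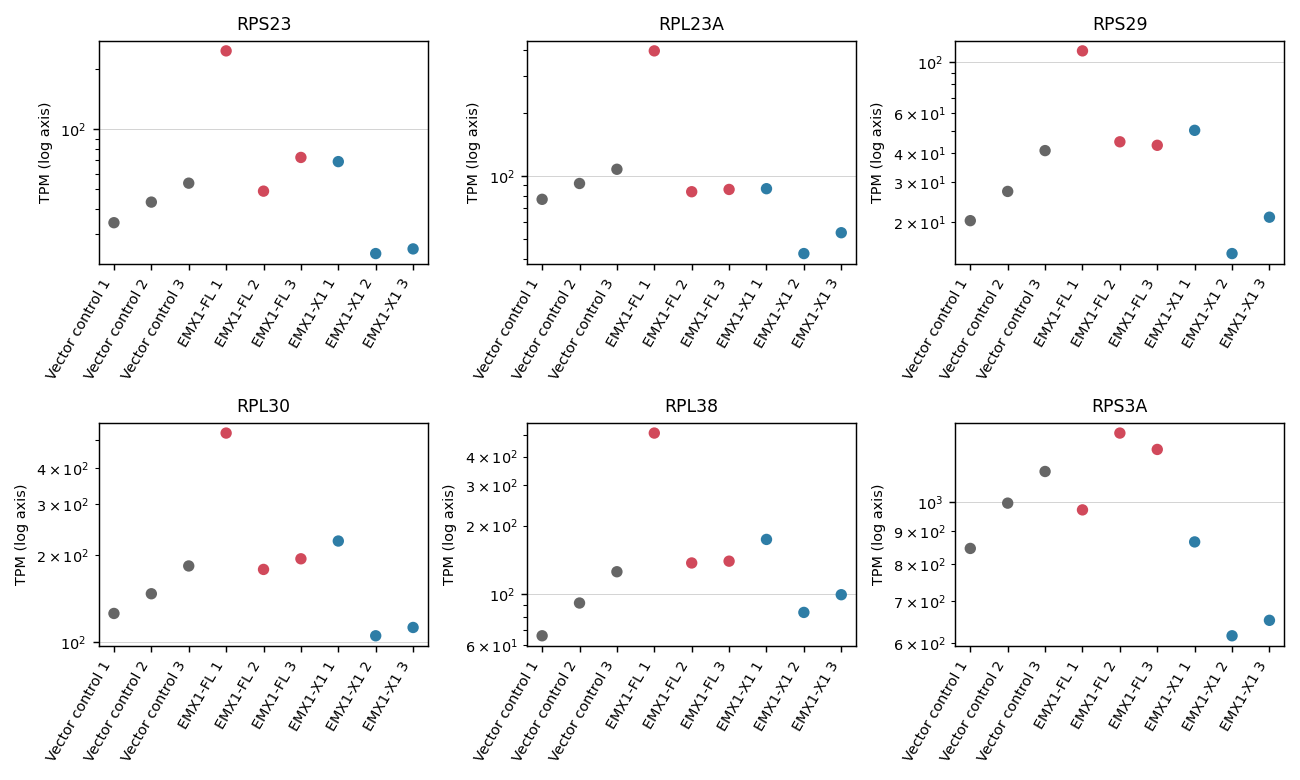
TPM on a log axis of 6 ribosomal protein genes in each of the 9 libraries (grey, vector control; red, EMX1-FL; blue, EMX1-X1). For RPS23, RPL23A, RPS29, RPL30 and RPL38 a single library, EMX1-FL 1, stands above the rest and EMX1-X1 2 and EMX1-X1 3 are below EMX1-X1 1, while for RPS3A all 3 EMX1-FL libraries lie above all 3 EMX1-X1 libraries.

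Most members moved together in some libraries, but not as 1 block across all 9. Of 82 members, 76 were above their own mean in vector control 3, 71 in EMX1-FL 1 and 6 in vector control 1. In the other libraries 21 to 48 were. EMX1-FL 1 was the highest library for 55 of 82 members and vector control 3 for 14, whereas vector control 1 was the lowest for 23, EMX1-FL 3 for 17, EMX1-X1 2 for 16 and EMX1-FL 2 for 15. The range over the 9 libraries was 0.35 in log2 CPM for RPS6, the substrate of the S6 kinases, and 3.43 for RPS23, with a median of 0.98. For 6783 other genes at a mean of 5 log2 CPM or more the median range was 0.79.

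In EMX1-FL 1 the members with short coding sequences had the higher median. The limit of 400 coding bases was set after the values were seen, so the following is a description without a test. In EMX1-FL 1 the median level relative to each gene's own mean was 0.80 in log2 CPM for the 27 members under the limit and 0.48 for the other 55. It was -0.43 and -0.22 in vector control 1, and -0.26 and 0.00 in EMX1-X1 2 (-0.000791 before rounding). For 591 other genes under the limit it was 0.25 in EMX1-FL 1 and -0.10 in vector control 1. Of the 12 members called between the isoforms, 9 were among the 27 short ones. That is 33.3% of the short members and 5.45% of the longer ones that were higher in EMX1-FL at an unadjusted p under 0.05. Other genes also differed by length, with 7.28% of the 591 under the limit higher and 2.2% lower. Of 12547 other genes at or above the limit, 2.81% were higher and 5.63% lower.

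Levels in the libraries also varied with the GC content of the coding sequence. The limit of 50% was likewise set after the values were seen and is used without a test. Members of 50% GC or more had a median of -0.30 in EMX1-FL 2 and -0.33 in EMX1-FL 3, but 0.04 in EMX1-X1 2 and 0.21 in EMX1-X1 3. Members under 50% GC had 0.02 and -0.11, then -0.20 and -0.15, in the same libraries. Other genes of 50% GC or more had -0.25, -0.24, 0.26 and 0.28, the same signs as the GC-rich members. Other genes under 50% GC had 0.28, 0.28, -0.21 and -0.29, the opposite sign to members under 50% GC in EMX1-FL 3. Under 50% GC the signs were also opposite in the vector control libraries, EMX1-X1 1 and EMX1-FL 1. In EMX1-FL 1 members under 50% GC had 0.305 and other genes -0.231. Across the 82 members, Spearman's rho of the log2 fold change with coding GC was 0.59 for EMX1-X1 against vector control and -0.02 for EMX1-FL against vector control (-0.025 before rounding). With coding length it was 0.14 and -0.44. The members share libraries, depth and base composition, and are not independent points. The part of length and GC content in the fold changes was not tested.

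**Figure D3:**
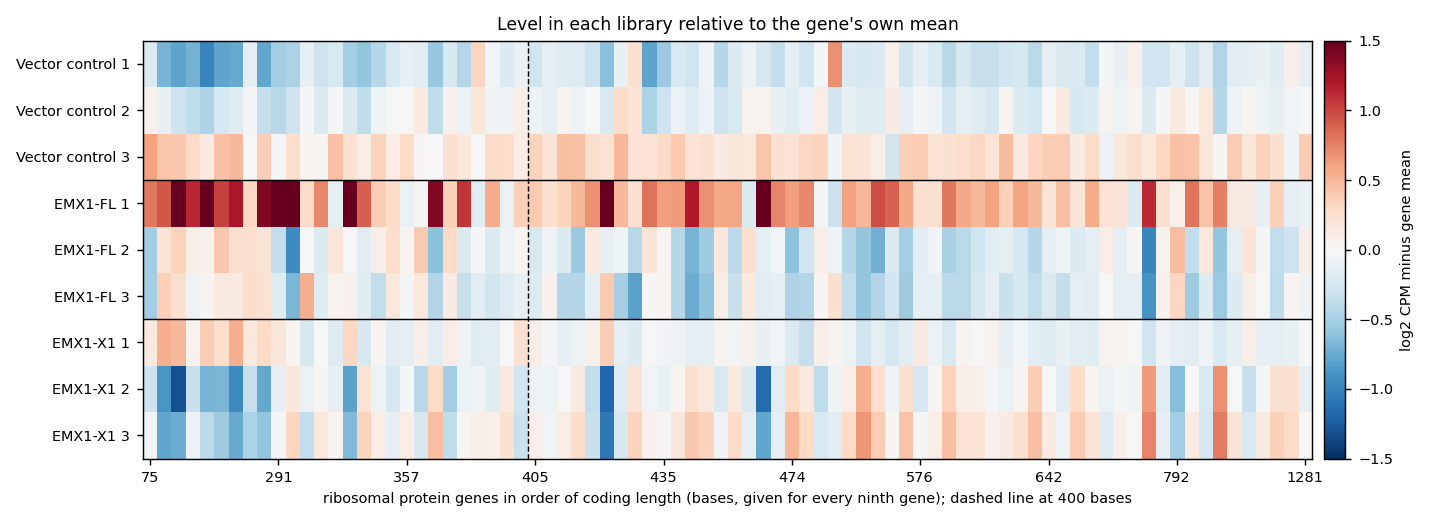
Level of 82 ribosomal protein genes (columns, by coding length) in the 9 libraries (rows), as log2 CPM minus the gene's mean over the libraries; red is above and blue below the mean, with the colour scale ending at 1.5 in both directions. EMX1-FL 1 is red for most genes and most strongly to the left of 400 coding bases, where EMX1-X1 2 and vector control 1 are blue.

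**Figure D4:**
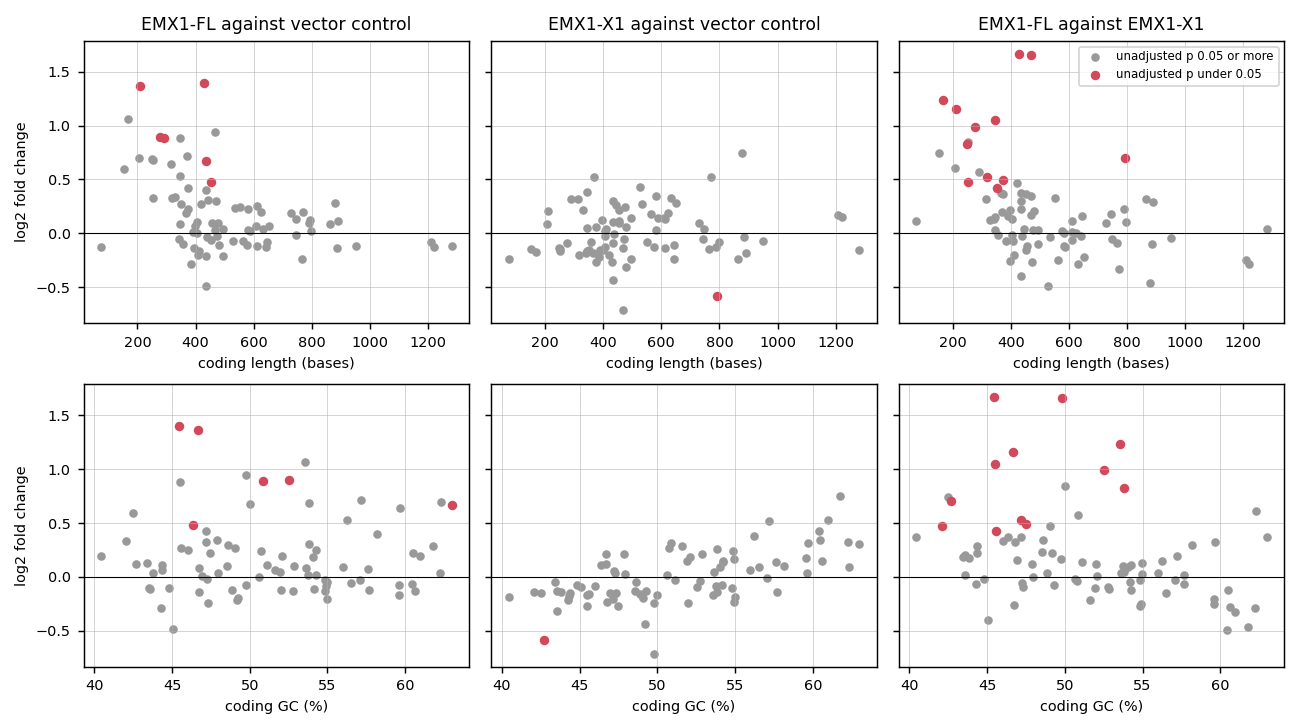
Log2 fold change of the 82 members in each comparison (columns) against coding length in bases (upper row) and coding GC in percent (lower row); red points have an unadjusted p under 0.05. In EMX1-FL against vector control the folds fall with coding length (rho -0.44), though the largest, 1.40 for RPS23, is at 429 bases, and in EMX1-X1 against vector control the folds rise with GC content (rho 0.59).

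Some paralogs can replace a core protein in ribosomes. The shares of a pair given here are of RNA and do not measure the make-up of ribosomes. RPL26L1 had 99.8, 125 and 133 TPM in vector control, 149, 103 and 79.3 in EMX1-FL, and 98.97, 96.0 and 90.8 in EMX1-X1. Its counterpart RPL26 had 73.9, 69.2 and 63.9 TPM, then 72.4, 47.1 and 37.6, then 55.1, 73.4 and 79.9. RPL26L1 held 63.1% ± 5.2 of the summed TPM of the pair in the vector control, 67.9% ± 0.7 in EMX1-FL and 58% ± 5.62 in EMX1-X1 (SD, n = 3 each). EMX1-FL and EMX1-X1 did not overlap (exact permutation p = 0.1, the smallest possible). The coding sequences of a pair are alike, so read pairs that fit both genes are left out and the split is uncertain. TPM also divide by a gene length, 1164 bases for RPL26L1 and 2476 for RPL26, although both coding sequences have 435 bases. By counts, RPL26L1 was below RPL26 in every library but EMX1-FL 2. In vector control the counts were 730, 933 and 1153 against 1151, 1101 and 1178. That RPL26L1 held most of the pair therefore rests on the lengths used.

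RPL22L1, the paralog of the RNA-binding RPL22, had 71.9, 85.1 and 71.3 TPM, then 79.96, 105.5 and 93.8, then 86.4, 61.8 and 67.6. RPL22 had 74.9, 65.2 and 52.7 TPM, then 53.2, 59.2 and 55.9, then 53.8, 59.2 and 63.8. RPL22L1 held 49%, 56.6% and 57.5% of the pair in vector control, 60%, 64% and 62.7% in EMX1-FL, and 61.6%, 51.1% and 51.4% in EMX1-X1. All EMX1-FL libraries lay above the controls (exact permutation p = 0.1, the smallest possible), and EMX1-X1 overlapped with both. The height of this share rests on gene lengths of 2051 bases for RPL22L1 and 4665 for RPL22. By counts RPL22L1 was below RPL22 in every library. In vector control the counts were 927, 1121 and 1088 against 2196, 1953 and 1830. Of the 5 paralogs tested, 0 passed an unadjusted p under 0.05 against vector control in either comparison.

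RPS27L, a p53 target and paralog of RPS27, was higher in EMX1-FL than in EMX1-X1. It had 14.2, 14.8 and 13.9 TPM in vector control, 19.2, 18.7 and 19.9 in EMX1-FL, and 17.8, 12.7 and 11.3 in EMX1-X1. The 3 EMX1-FL values were close to each other and above all others, with a log2 fold change of 0.47 ± 0.19 against EMX1-X1 (adjusted p = 0.611 by edgeR) and 0.33 against vector control (adjusted p = 0.994 by edgeR), and an exact permutation p of 0.1 in both. RPS27 had 684.5, 977.5 and 1421 TPM, then 2662, 1361 and 1317, then 1710, 607 and 683. RPS27L held 0.716% to 2.05% of the pair by TPM, with gene lengths of 8825 bases for RPS27L and 1028 for RPS27.

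RPL7L1 had 154, 145 and 154 TPM, then 125, 148 and 137, then 148, 144 and 146.5, and RPL7 had 808, 819 and 681 TPM, then 948, 884 and 865, then 870, 793 and 723. RPL7L1 held 16.5% ± 1.8 of the pair in the vector control, 13.2% ± 1.46 in EMX1-FL and 15.6% ± 1.12 in EMX1-X1 (SD, n = 3 each). EMX1-FL lay below the controls without overlap (exact permutation p = 0.1, the smallest possible). The gene lengths behind these TPM were 7811 bases for RPL7L1 and 2700 for RPL7. RPL3 had 1408, 1413 and 1657 TPM, then 2018, 1229 and 1278, then 1460, 1920 and 2043, and RPL3L held at most 0.183% of that pair. For RPL10L and RPL39L a count of 0 allows up to 3 counts a library, or 0.119 to 0.139 CPM. Their counterparts were expressed, RPL10 at 471 to 605 TPM and RPL39 at 94.0 to 314.5 TPM over the 9 libraries.

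**Figure D5:**
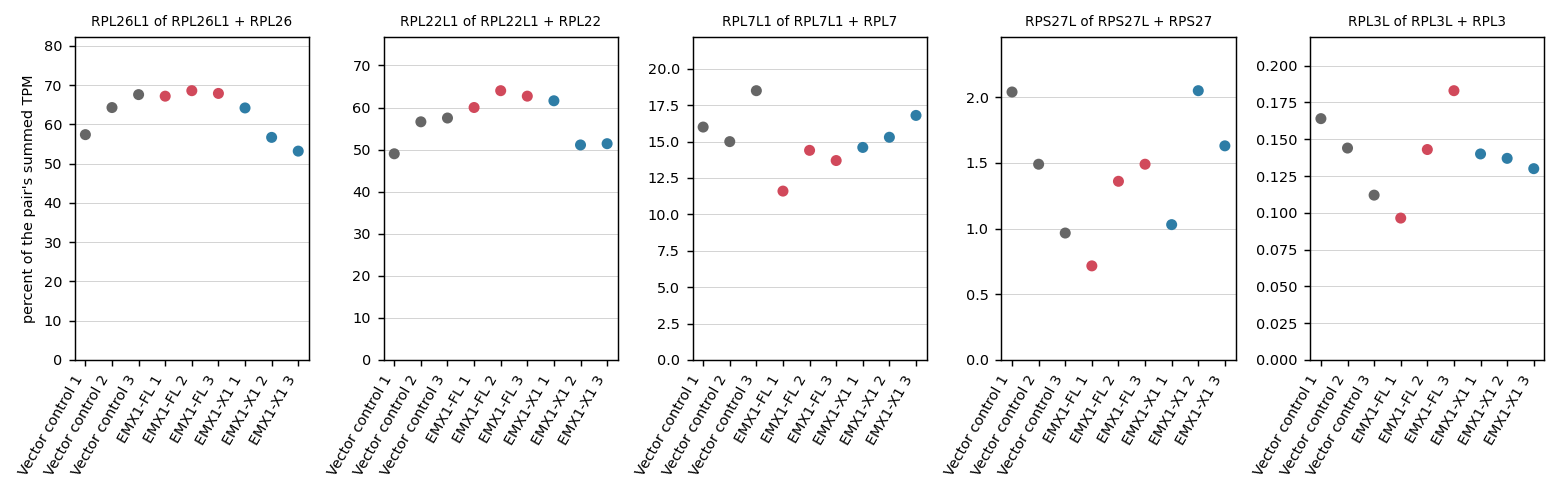
Percent of the summed TPM of each pair that the paralog holds, in each of the 9 libraries, for the 5 pairs with a detected paralog; each panel starts at 0 and has its own scale. By TPM, RPL26L1 holds over 53% of its pair in every library and RPL3L at most 0.183%. The height of each share depends on the gene lengths that scale TPM, and by counts RPL26L1 is below RPL26 in every library but EMX1-FL 2.

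RPL5 and RPL11 form the 5S ribonucleoprotein, which binds MDM2 when assembly of the ribosome fails. RPL5 had 962, 1044 and 1063 TPM in vector control, 1148, 1232 and 1177 in EMX1-FL, and 1153, 858 and 907 in EMX1-X1. RPL11 had 382, 377 and 415 TPM, then 865, 269 and 341, then 408, 542 and 576. The stalk protein RPLP2 had 509.5, 569.5 and 727 TPM, then 1412, 686 and 706, then 661, 918 and 969. Of the 5 genes of the 5S particle and the stalk, 0 passed an unadjusted p under 0.05 in any of the 3 comparisons, and EMX1-FL 1 was the highest library for RPL11 and RPLP2 but not for RPLP0 or RPL5. RPSA, the laminin receptor protein of the small subunit, had 1217, 1234 and 1550 TPM, then 1465, 1225 and 1233, then 1260, 1400 and 1554. RPS6 had 1321, 1307 and 1409 TPM, then 1619, 1291 and 1364, then 1512, 1443 and 1502, and the groups of RPSA overlapped in TPM, while for RPS6 all 3 EMX1-X1 values lay above the controls.

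Against vector control, few other genes of the pathway were called at an unadjusted p under 0.05. Of all genes tested, 3.97% rose and 1.83% fell at that p with EMX1-FL, 5.95% rose and 2.16% fell with EMX1-X1, and 2.98% were higher and 4.66% lower in EMX1-FL than in EMX1-X1. Of the 16 tested translation factors with TOP mRNAs, 0 passed an unadjusted p under 0.05 against vector control with either isoform. Between the isoforms 3 of them (18.8%) were higher in EMX1-FL, against 2.98% of all genes. EIF3E and NPM1 led, with log2 fold changes of 0.71 and 0.50. Of 14 snoRNA host genes with TOP transcripts, 1 rose with EMX1-FL, SNHG6 (log2 fold change 0.53). With EMX1-X1, SNHG16 fell (-0.60) and SNHG7 rose (0.79), and between the isoforms SNHG16 was higher (0.49) and SNHG15 lower in EMX1-FL (-1.95; adjusted p = 0.611 by edgeR). SNHG15 was the only gene of this list past the DEG threshold in any comparison. It had under 10 counts in at least 1 library, and without EMX1-FL 1, EMX1-FL 3 or EMX1-X1 2 it was no longer called. Of 46 ribosome biogenesis genes, 0 passed against vector control with either isoform. Between the isoforms 3 of them (6.52%) were higher in EMX1-FL, led by the kinase RIOK2 (0.77) and by WDR43 (0.56). Of 14 regulators, 1 fell with EMX1-FL, MTOR (-0.31), and 0 passed in the other comparisons. The adjusted p of these named genes was 0.531 or more in edgeR.

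The mitochondrial ribosomal proteins, which serve the ribosome of the mitochondrion, were counted as a comparison family. Of 76 tested, 5 rose and 0 fell with EMX1-FL, 3 rose and 0 fell with EMX1-X1, and 7 were higher and 0 lower in EMX1-FL than in EMX1-X1, at an unadjusted p under 0.05. That is 6.58%, 3.95% and 9.21% of the 76, against 3.97%, 5.95% and 2.98% of all genes in the same directions. Their median log2 fold changes were 0.06, -0.02 and 0.03. Their median level relative to each gene's mean was 0.31 in EMX1-FL 1, the highest of the 9 libraries as for the cytosolic set, where it was 0.52 (0.525 before rounding).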

How the data were processed

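The 9 libraries of SNU-398 were put into groups by their titles. The authors deposited unnormalized counts, the read pairs on each gene symbol (featureCounts 2.0.1 by the file header, 2.0.6 in the submitters' processing notes, while the paper names RSEM), made with Ensembl release 99 of GRCh38 after fastp and STAR. They also deposited log2 values, log2(TPM + 1), from which TPM was taken back. By default that counter leaves out multi-mapped read pairs and pairs that overlap several genes, and no strand was set, so antisense partners cannot be told apart. Depth was 21562703 to 25197970 counts a library, and intervals and floors cover counting error only.

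Counts were tested with edgeR 4.0.16 in R 4.3.3 (TMM, filterByExpr, 9 libraries, group as the only term, quasi-likelihood F test, Benjamini-Hochberg adjustment over 18574 genes). CPM use TMM library sizes. Single values and shares were tested with the two-sided exact permutation test. In simulated data of EMX1-FL against vector control with 18180 genes, of which 200 were changed, the DEG threshold was passed by 55% of genes set to change by 1 in log2 and by 99% of genes set to change by 2. Coding length and GC content came from GENCODE release 29. Python 3.11.15 was used.

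The members, the gene lists and the tests were chosen with earlier results of these data known. Named were the paralogs with their counterparts, RPL5, RPL11, RPLP0, RPLP1, RPLP2, RPSA and RPS6, the members past the DEG threshold, the 5 highest and 5 lowest by vector control TPM and the 3 smallest p of each comparison; RPL34 and the further genes named as called or without overlap were named after their values were seen. The lists were 5S particle and stalk, TOP translation factors, TOP snoRNA host genes, ribosome biogenesis, regulators, mitochondrial ribosomal proteins and cell markers. A further list is not reported here.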

Additional observations from a re-analysis of the deposited data

Results flagged for a closer look

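The effects of EMX1-FL and EMX1-X1 differed from each other past the DEG threshold for 5 ribosomal protein genes. The log2 fold change of EMX1-FL against EMX1-X1 was 1.67 for RPS23, 1.66 for RPL23A, 1.23 for RPS29, 1.15 for RPL38 and 1.05 for RPL30. None had an adjusted p under 0.05 in edgeR's quasi-likelihood test, none separated these groups without overlap in log2 CPM or in TPM, and EMX1-FL 1 was the highest library for each.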

How the results depend on the processing

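Counts of members called changed with the fit. The medians and the summed share moved by less than the spread between libraries, a pooled SD of 0.269 for the library medians. That spread exceeds the medians themselves, so it cannot show that they are stable, and signs changed. Without EMX1-FL 1 the median between the isoforms went from 0.12 to -0.14. The log2 ratio of the share, EMX1-FL against vector control, went from 0.113 to -0.116 there. Without vector control 3 the median of EMX1-X1 against vector control went from -0.04 to 0.15. For EMX1-FL against vector control, 2 members passed the DEG threshold, against 1 with DESeq2 1.42.0 and 1 with limma 3.58.1 on log2(TPM + 1) or log2(TPM + 0.1). At an unadjusted p under 0.05 there were 6, against 18 with no filter beyond 1 count (4.63% of all genes called) and 17 with the side of the first principal component as covariate (15.1%). For EMX1-X1 against vector control there was 1 at that p, against 2 with DESeq2 (9.21%) and 6 each with no filter (7.34%), with only the 6 libraries compared (13.2%) and with the side as covariate (12.6%). For EMX1-FL against EMX1-X1, 5 passed the DEG threshold, against 3 with DESeq2 and 3 with limma on either TPM scale, and 12 passed the unadjusted p, against 25 with the side as covariate (12.9%). With no filter, 7, 1 and 8 members passed an adjusted p under 0.05 in the 3 comparisons, and with the side as covariate 1, 0 and 0. The cause of these changes was not tested. For the alternative fits, those without 1 library included, shares of all genes past the DEG threshold or an adjusted p are not given. The counts of members past these limits therefore do not tell a change of the members from a shift of the whole fit.

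Leaving out 1 library at a time, which leaves its group with 2, gave 0 to 8 members past the DEG threshold for EMX1-FL against vector control and 0 to 18 at the unadjusted p. The range was 0 to 7 at the unadjusted p for EMX1-X1 against vector control, and 1 to 9 past the DEG threshold and 3 to 27 at the unadjusted p between the isoforms. Single genes were followed in 34 pairs of a gene and a comparison: the members called, the 3 smallest p, RPL34, RPS27L, RPS12 and the pathway genes given with a fold. In the alternative fits 0 changed sign, and of 679 values 551 kept their side of an unadjusted p of 0.05, 113 lost the call and 15 gained it. The overlap in TPM, the pathway genes' alternatives and the ratio of the subunits were added after the data were seen. The ratio kept its sign in every alternative run.

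With the replicate number as a block, 0 members passed the DEG threshold for EMX1-FL against vector control and 1 the unadjusted p (3.87% of all genes called). Between the isoforms 3 passed the DEG threshold. For libraries with the same number, the mean correlation of their deviations was -0.135, 0.11 and -0.352 in the 3 comparisons. It was 0.0743, -0.0596 and 0.164 for other numbers. Same numbers were thus the more alike only in EMX1-X1 against vector control. These values cannot decide whether the numbers pair the libraries, because other differences between the libraries enter the deviations too.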
